A study of Mus musculus with 37 samples.

Results

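The effect of the D542G form of Esr1 in the absence of added hormone was examined in mature luminal cells of the mouse mammary gland. Esr1 encodes estrogen receptor alpha. The comparison set 3 libraries titled D542G with placebo against 3 titled WT with placebo, 6 of the 37 libraries in the series, and covered 18426 expressed genes. All animals of the series, wild type ones included, were raised to 8 weeks of age and ovariectomized, and carried a pellet for 8 days before their glands were collected. The pellet held no hormone in the placebo groups. In the other groups used here it gave estradiol (E2), progesterone (P4) or both (E2+P4), and a further mutant, Y541S, received the same treatments. Mature luminal cells were sorted from the glands by flow cytometry, and libraries were made from total RNA by the Nextera XT method. The labels give neither the strain nor the zygosity, and do not state whether each library is 1 animal or several. The p-values therefore weigh the difference between groups against the spread of libraries within groups, part of which may be technical. That spread was estimated over all 37 libraries and not over these 6 alone.

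Estrogen receptor alpha is a nuclear receptor that binds DNA and recruits coactivators once estradiol occupies its ligand-binding domain. Substitutions in that domain, at the positions that match the mutated residues here, occur in human breast cancers treated by hormone deprivation. They are known to hold the receptor in an active shape without ligand. In the mammary gland the receptor is made by the mature luminal, or hormone-sensing, cells, which respond to ovarian hormones and signal to neighbouring cells through secreted factors. Ovariectomy removes the main source of estradiol, so the placebo groups show the mutant receptor with little ligand.

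The WT libraries held 37.02 to 40.41 M counts and the D542G libraries 46.06 to 50.06 M, so every D542G library was deeper than every WT library. The 6 libraries had 19285 to 20137 detected genes. Replicates differed by more than sampling noise, with a chi-square per degree of freedom of 32.6 or more for each pair within a group. Markers of the labelled cell type were present in all 6: Krt19, a luminal keratin, ranged from 5840 to 9900 CPM (counts scaled to a common library size) and Prlr, the prolactin receptor, from 1330 to 2390. WT placebo 2 stood apart. Its 16 basal and myoepithelial markers summed to 1020 CPM, against 80.8 and 113 in the other WT libraries and 56.3 to 410 in D542G, and its 30 genes of G2 and M phase summed to 1030 CPM, against 106 and 137 in the other WT libraries and 144 to 586 in D542G. D542G placebo 3 had the highest sums of its group in both lists. In these bulk samples, fewer cells of a type and less RNA per cell cannot be told apart.

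Without hormone, D542G cells differed from WT cells in 372 genes (2.02% of those tested). The call rests on edgeR's quasi-likelihood test at a Benjamini-Hochberg adjusted p under 0.05. Of these, 228 were higher in D542G (1.24%) and 144 lower (0.782%). The change was 2-fold or more in 180 and 111 genes and 8-fold or more in 60 and 23. Median log2 fold changes were 1.64 and -1.57, and the median over all genes tested was -0.028. The groups did not overlap for 225 of the higher and 143 of the lower genes, and for 23.9% of all genes tested, 12.1% with D542G above and 11.8% with D542G below. Of all genes tested, 46.1% had a positive and 52.8% a negative change. Among the higher genes, D542G placebo 1 was the lowest library of its group in 133 (58.3%), against 35.0% of all genes tested, and WT placebo 2 was the lowest WT library in 144 (63.2%), against 39.1%. Leaving out 1 library gave 168 to 261 calls. The count was 189, 178 and 206 when WT placebo 1, 2 and 3 were dropped in turn, and 261, 196 and 168 when D542G placebo 1, 2 and 3 were. Of the 372 genes, 111 were called in all 6 of these fits.

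**Figure D1:**
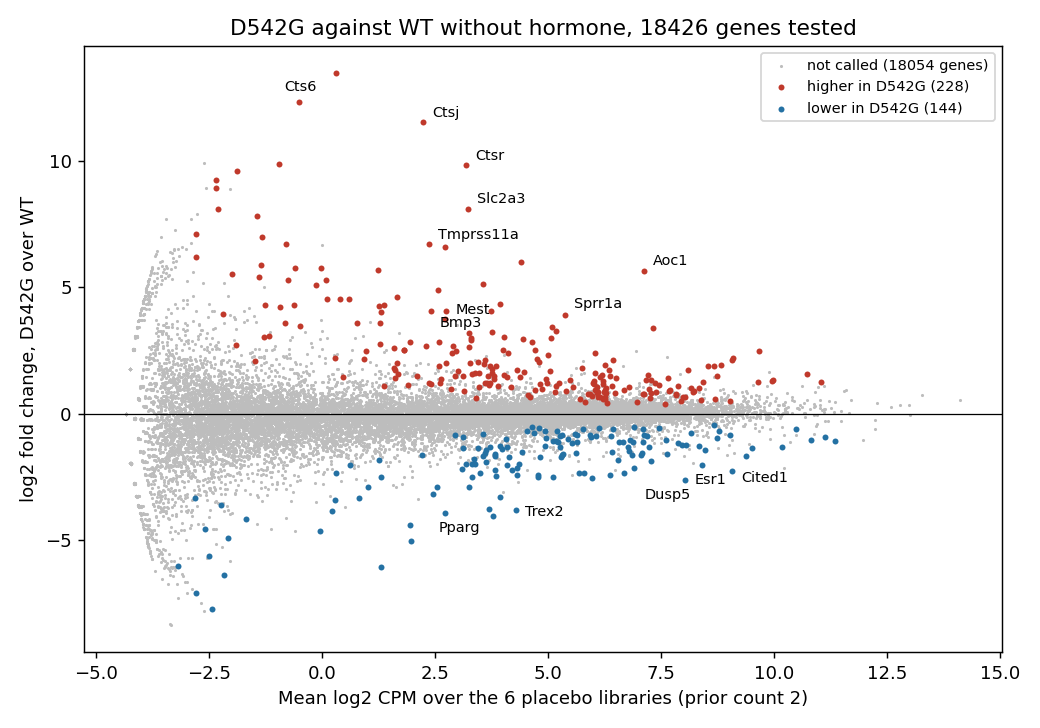
Log2 fold change of D542G over WT without hormone (vertical axis) against mean log2 CPM over the 6 placebo libraries (horizontal axis), 1 point per gene, red for called higher and blue for called lower. The placental-type cathepsins Ctsj, Ctsr and Cts6 and the glucose transporter Slc2a3 lie among the highest called rises, and Pparg, Esr1 and Cited1 among the called falls.

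Esr1 itself (ENSMUSG00000019768, GRCm38 chromosome 10, 4611593 to 5005614) was lower in the mutant. Its level was 654, 579 and 831 CPM in the WT libraries and 167, 199 and 147 CPM in the D542G libraries. All D542G libraries were below all WT libraries, and the log2 fold change was -2.01 ± 0.34 (SE, adjusted p = 0.000963). The call held in every fit that left out 1 library. A gene count holds no information on the allele, so the level of Esr1 is no check of the genotype label.

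Among 32 steroid and other nuclear receptors, 31 were tested, 1 rose and 4 fell (16.1% called, median log2 fold change -0.25). The share called in each gene list, here and below, is to be set against 2.02% of all genes tested. Pparg, a receptor that drives lipid storage genes (ENSMUSG00000000440, chromosome 6, 115360951 to 115490399), showed the largest fall among the called genes above the abundance floor for naming (mean log2 CPM 2) whose groups were separate. It was at 74.8, 35.3 and 61.3 CPM in WT and at 3.00, 4.25 and 3.16 CPM in D542G, a log2 fold change of -4.04 ± 0.74 (adjusted p = 0.00175). The D542G libraries lay close together and far below WT, and the call held whichever library was left out. Rxra, the partner with which such receptors bind DNA, fell by 1.11 on the log2 scale, and Rara, the retinoic acid receptor alpha, fell by 0.87. Both lost the call when single libraries were left out, with adjusted p up to 0.107 without D542G placebo 2 for Rxra and 0.243 without WT placebo 1 for Rara. Esrrb, an orphan receptor related to the estrogen receptors, was at 0.444, 0.153 and 1.35 CPM in WT and at 1.84, 3.13 and 3.88 CPM in D542G. Its log2 fold change was 2.19 ± 0.50 (adjusted p = 0.0163, and 0.11 without WT placebo 1). Esr2, the second estrogen receptor, stayed at or under 0.741 CPM in all 6 libraries and was not called.

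The progesterone receptor gene Pgr, a classical estrogen target, was not called. It was at 294, 108 and 150 CPM in WT and at 217, 270 and 293 CPM in D542G, and the groups overlapped (log2 fold change 0.50 ± 0.36, adjusted p = 0.676). Greb1, another classical target, was near 1 CPM in both groups, at 2.22, 0.868 and 1.07 CPM in WT and 0.659, 0.613 and 1.30 CPM in D542G (-0.69 ± 0.55, adjusted p = 0.72). Areg, the epidermal growth factor family ligand through which estrogen acts on ductal growth, ranged from 83.3 to 133 CPM in WT and from 49.8 to 183 CPM in D542G. Of 28 tested genes in the list of estrogen receptor targets, none rose and 2 fell, Rara and Olfm1. This was 7.14% called, against 2.02% of all genes tested, with a median of -0.11. Olfm1, a secreted olfactomedin, was at 33.4 to 49.1 CPM in WT and 8.53 to 11.2 CPM in D542G, a log2 fold change of -2.14 ± 0.52 (adjusted p = 0.024, and 0.137 without D542G placebo 3). Among 31 coactivators and corepressors of the receptor, Cited1 fell and none rose.

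Cited1, a transcriptional coregulator that marks hormone-sensing cells, was at 992, 850 and 1920 CPM in WT and at 373, 211 and 194 CPM in D542G. Its log2 fold change was -2.28 ± 0.49 (adjusted p = 0.00866, and 0.0835 without D542G placebo 3). Of 22 genes of hormone-sensing luminal identity, 3 fell and none rose (13.6% called, against 2.02% of all genes tested, median 0.09). The 3 were Cited1, Esr1 and Tbx3. Tbx3, a T-box transcription factor, went from 377 to 578 CPM in WT to 189 to 234 CPM in D542G (-1.27 ± 0.31, adjusted p = 0.0224, and 0.108 without D542G placebo 3). Other genes of this identity gave no call. Foxa1, the pioneer factor that opens chromatin for the receptor, was at 509 to 865 CPM in WT and 269 to 535 CPM in D542G (-0.83 ± 0.42, adjusted p = 0.459). Gata3, a luminal transcription factor, was at 239 to 344 and 298 to 377 CPM. Krt8 and Krt18, the luminal keratins, had log2 fold changes of 0.48 ± 0.21 and 0.27 ± 0.18, with adjusted p of 0.341 and 0.641.

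Among called genes above the same abundance floor whose groups were separate, the largest rises were those of Ctsj and Ctsr, placental-type cathepsins. These are cysteine proteases of rodents best known from the placenta. Of 9 such genes, 4 had counts, all on chromosome 13, and 3 were called. These 4 had 36 counts or fewer over the WT placebo libraries, so in this comparison only their D542G libraries held many counts. The number called is therefore a description and not to be read against the 2.02% of all genes tested. Ctsj (ENSMUSG00000055298, chromosome 13, 61000179 to 61005959) had 0, 2 and 6 counts in the WT libraries and 7797, 11349 and 10278 counts in the D542G libraries. In CPM this was 0, 0.0511 and 0.168 against 177, 258 and 219, a log2 fold change of 11.52 ± 1.61 (adjusted p = 0.000119). Ctsr (61159204 to 61164256) rose from 0.366, 0.128 and 0.477 CPM to 108, 269 and 497 CPM, a log2 fold change of 9.81 ± 1.53 (adjusted p = 0.000458). Cts6 (61195132 to 61203410) had no count in any WT library and 128, 422 and 1616 counts in D542G, at least 605-fold higher when WT is set to 3 counts over the group. Each of these 3 calls held whichever library was left out. Ctsq (61035024 to 61040631), which lies between Ctsj and Ctsr, had no WT count and 27, 125 and 41 counts in D542G, at least 53.9-fold higher by the same bound, but was not called (adjusted p = 0.103). The other 5 members, Cts3, Ctsm, Cts7, Cts8 and Ctsll3, had no count in any of the 6 libraries. Ctsll3 lies before this stretch and Cts8, Cts7, Ctsm and Cts3 after it, so the 4 genes with counts were consecutive in the order of these 9. These genes are close copies of one another, and how the authors' counting treated reads that match several of them was not given in the sources used here. Of 11 lysosomal cathepsins, none was called. Ctse, a cathepsin in neither list and chosen after its values were seen, was called higher. Its mean was 55.2 CPM in WT and 572 CPM in D542G (3.37 ± 0.59, adjusted p = 0.0012), and the call held whichever library was left out.

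The promoters of the 4 genes that had counts are shown for the 120 bases before the RefSeq start site, from the RefSeq promoter table on GRCm38.p6, all on the minus strand of chromosome 13. The RefSeq start lies inside the gene span given above for each of them, so each window reaches into that span. Capitals mark the longest run of bases shared by all 4, 11 bases that contain CCAAT.
Ctsj, chr13:61005926-61006045: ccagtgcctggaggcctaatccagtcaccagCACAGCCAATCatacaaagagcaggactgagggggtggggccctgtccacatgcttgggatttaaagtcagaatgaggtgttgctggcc
Ctsr, chr13:61164189-61164308: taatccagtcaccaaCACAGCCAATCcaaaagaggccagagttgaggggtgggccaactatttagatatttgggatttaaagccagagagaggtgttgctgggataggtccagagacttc
Cts6, chr13:61203393-61203512: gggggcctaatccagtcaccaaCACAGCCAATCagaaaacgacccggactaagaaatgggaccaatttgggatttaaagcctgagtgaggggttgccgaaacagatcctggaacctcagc
Ctsq, chr13:61040598-61040717: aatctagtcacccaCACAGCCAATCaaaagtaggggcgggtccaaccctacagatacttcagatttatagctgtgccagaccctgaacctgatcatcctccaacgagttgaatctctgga
The run ended 78 to 95 bases before the listed start site. It was found, on either strand, in promoters of 26 of 12672 tested genes with an entry in the table (0.205%), these 4 among them. The run was not in the listed promoters of Cts3, Ctsm, Cts7, Cts8 or Ctsll3. CCAAT alone was in those of Cts7 and Ctsll3, which had no count, so it did not set the 4 genes apart. The run was picked because these 4 promoters share it, so its presence in them is a description.

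Slc2a3, a glucose transporter of high affinity (ENSMUSG00000003153, chromosome 6, 122727809 to 122801640), was at 0.392, 1.76 and 0.225 CPM in WT. In D542G it was at 33.6, 209 and 417 CPM, so the D542G libraries differed widely among themselves and still lay above all WT libraries. Its log2 fold change was 8.09 ± 1.09 (adjusted p = 6.85e-05), and the call held whichever library was left out. Slc16a3, a lactate exporter, went from 0.470 to 1.12 CPM to 3.25 to 7.85 CPM (2.49 ± 0.55, adjusted p = 0.012, and 0.125 without D542G placebo 3). These were the 2 called genes of 23 in glucose and lactate transport and glycolysis (8.7% called). The list's median was 0.28, and 18 of 23 members had a positive change, against 46.1% of all genes tested. Among the enzymes, Ldha was at 278 to 298 CPM in WT and 321 to 456 CPM in D542G without a call.

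Aoc1, a secreted amine oxidase that degrades histamine, was the most abundant of the 15 largest rises (chromosome 6, 48872896 to 48909188). It was at 53.4, 5.90 and 14.5 CPM in WT and at 710, 1190 and 1790 CPM in D542G, a log2 fold change of 5.64 ± 0.97 (adjusted p = 0.000963). Tmprss11a, a membrane serine protease of surface epithelia, was at 2.06, 0.0766 and 0.225 CPM in WT and at 22.3, 78.6 and 146 CPM in D542G (6.69 ± 0.90, adjusted p = 6.85e-05). Both calls held whichever library was left out. Sprr1a, a protein of the cornified envelope, was at 9.88 to 17.1 CPM in WT and at 27.1, 162 and 439 CPM in D542G (3.89 ± 0.72, adjusted p = 0.00191). Its D542G libraries were widely spread, with D542G placebo 1 closest to WT. Olfm4, a secreted glycoprotein of epithelial crypts, rose by 5.13 ± 1.30 and Defb1, an antimicrobial peptide, by 4.04 ± 1.05 on the log2 scale. Both lost the call when single libraries were left out, with adjusted p up to 0.155 without WT placebo 2 and 0.19 without D542G placebo 3. Dpep2, a membrane dipeptidase, was at 0.970 to 6.61 CPM in WT and 188 to 206 CPM in D542G, but its whole span overlaps other annotated genes, so its counts may belong in part to them. The remaining members of the 15 largest rises were Gm12888, Tcf24, 3830417A13Rik, Mest, Bmp3 and Fam83e. Mest, an imprinted hydrolase gene, was at 1.53 to 2.95 CPM in WT and at 85.9, 7.22 and 15.2 CPM in D542G, with the change carried most by D542G placebo 1 (adjusted p = 0.0308, and 0.31 without that library).

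**Figure D2:**
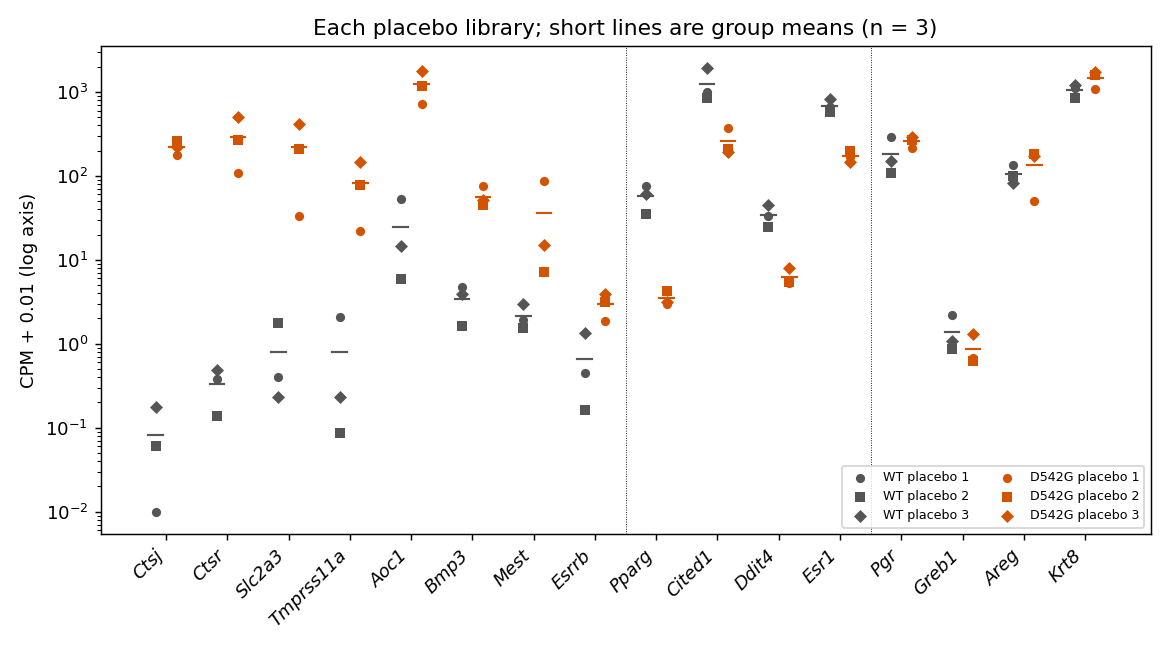
CPM + 0.01 on a log axis for 16 genes in each of the 3 WT and 3 D542G placebo libraries, with a short line at each group mean. The 8 genes on the left were called higher, the next 4 called lower, and the last 4, Pgr, Greb1, Areg and Krt8, were not called and overlap between the groups.

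Signals that hormone-sensing cells send to their neighbours changed in both directions. Of 19 tested paracrine factors, 2 rose and 1 fell (15.8% called, against 2.02% of all genes tested, median -0.39). Bmp3, a ligand of the bone morphogenetic protein family, went from 4.75, 1.61 and 3.90 CPM in WT to 74.7, 44.5 and 50.9 CPM in D542G (4.05 ± 0.64, adjusted p = 0.000471). The lowest D542G library was far above the highest WT library, and the call held whichever library was left out. Tph1, which makes serotonin outside the brain, went from 7.36, 4.39 and 6.68 CPM to 20, 48.7 and 81.9 CPM (3.03 ± 0.68, adjusted p = 0.0125, and 0.0975 without D542G placebo 3). Vegfa, the vascular growth factor, was at 418, 249 and 369 CPM in WT and at 110, 120 and 117 CPM in D542G (-1.58 ± 0.33, adjusted p = 0.00704). The D542G values were close together, and the call held whichever library was left out. Wnt5a, a Wnt ligand, was at 130 to 163 CPM in WT and 286 to 497 CPM in D542G with an adjusted p of 0.0637. Wnt4 and Tnfsf11, which carry the progesterone signal to basal and progenitor cells, had log2 fold changes of -0.68 ± 0.54 and -0.77 ± 1.91 and were not called, and Tnfsf11 stayed at or under 0.309 CPM.

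Some genes of the growth hormone and prolactin pathway were called. Of 13 genes, 2 rose and 1 fell (23.1% called, against 2.02% of all genes tested, median 0.07). Ghr, the growth hormone receptor, was at 52.4, 47.5 and 49.3 CPM in WT and 108, 145 and 87.3 CPM in D542G (1.19 ± 0.25, adjusted p = 0.00874). Socs2, a feedback inhibitor of that pathway, was at 2.89 to 3.81 CPM in WT and 9.98 to 19.0 CPM in D542G (2.01 ± 0.46, adjusted p = 0.0145). Socs1, an inhibitor of cytokine signalling, moved the other way, from 19.7 to 32 CPM to 5.20 to 11 CPM (-1.57 ± 0.32, adjusted p = 0.00633). All 3 lost the call when some single library was left out, with adjusted p up to 0.0833, 0.0841 and 0.0782 for Ghr, Socs2 and Socs1, without D542G placebo 2, 1 and 3 in that order. Prlr and the signal transducer Stat5a were not called.

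Some genes of immune recognition were also higher. H2-Ab1, the beta chain of an MHC class II molecule, was at 2.85, 5.26 and 3.51 CPM in WT and at 18.2, 22.2 and 32.6 CPM in D542G (2.65 ± 0.49, adjusted p = 0.00191). It was the only call of 8 tested genes in MHC class II presentation (12.5% called, median 0.83). The alpha chain H2-Aa was at 1.44 to 1.89 and 2.25 to 4.84 CPM, and Cd74, the invariant chain, at 5.43 to 6.61 and 5.41 to 16.9 CPM, both without a call. Leukocyte markers were low in all libraries: 16 of 17 were tested, none was called, 15 had a positive change, against 46.1% of all genes tested, and their sum was 5.67 to 8.30 CPM in WT and 11.3 to 14.9 CPM in D542G. Ptprc, which marks all leukocytes, was at 0 to 0.0511 CPM in WT and 0.597 to 0.841 CPM in D542G. Their part in the H2-Ab1 difference was not tested. Bst2, an interferon-induced membrane protein, rose by 1.49 ± 0.27 and was the only call of 27 genes of the type I interferon response (3.70% called, median -0.03). Cxcl15, a chemokine of lung and gland epithelium, went from 370, 130 and 227 CPM to 853, 1030 and 911 CPM (1.95 ± 0.28, adjusted p = 0.000195). Vwf, the von Willebrand factor, was at 20.7 to 34 CPM in WT and 127 to 192 CPM in D542G (2.39 ± 0.44, adjusted p = 0.00191), and no other gene of 12 endothelial markers was called, with Pecam1 at 6.01 to 8.71 and 4.61 to 10.6 CPM.

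Among the 15 largest falls were 2 phosphatases that switch off MAP kinases. Dusp5 was at 760, 575 and 651 CPM in WT and at 114, 153 and 61.3 CPM in D542G (-2.60 ± 0.53, adjusted p = 0.00546, and 0.0629 without D542G placebo 3). Dusp2 was at 37.7, 47.3 and 71.3 CPM and at 6.88, 1.91 and 7.34 CPM (-3.28 ± 0.84, adjusted p = 0.0335, and 0.185 without D542G placebo 2). Trex2, a DNA exonuclease of epithelia, fell by 3.82 ± 0.68 on the log2 scale, Scara3, a scavenger receptor, by 3.77 ± 0.59 and Ccdc85c by 3.16 ± 0.50, and these calls held whichever library was left out. Ddit4, an inhibitor of mTOR signalling induced by stress, was at 24.6 to 45.1 CPM in WT and 5.22 to 7.95 CPM in D542G (-2.47 ± 0.53, adjusted p = 0.00985, and 0.0654 without D542G placebo 2). Id2, an inhibitor of helix-loop-helix factors that was chosen after its values were seen, was at 291, 288 and 189 CPM and at 51.5, 52.9 and 69.1 CPM (-2.15 ± 0.31, adjusted p = 0.00019).

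The other largest falls included regulators that are broadly expressed: Cul3, the scaffold of a ubiquitin ligase, the RNA-binding gene Qk, the chromatin genes Mta1, Tada2b and Mbd2, and Heca, Ier5l and Zfp704. In several of these WT placebo 3 was well below the other WT libraries. Cul3 was at 220, 180 and 74.8 CPM in WT and at 29.7, 22.0 and 30.6 CPM in D542G (-2.53 ± 0.50, adjusted p = 0.00449), and its call held whichever library was left out. Qk was at 97.1, 88.3 and 26 CPM in WT and at 15.4, 10.1 and 11.7 CPM in D542G (-2.51 ± 0.62, adjusted p = 0.0282, and 0.147 without D542G placebo 2). Tada2b, a subunit of a histone acetyltransferase complex, was at 29.4, 15.6 and 6.34 CPM in WT and 2.11 to 2.59 CPM in D542G (-2.89 ± 0.76, adjusted p = 0.0404, and 0.222 without WT placebo 1). The calls of Qk, Tada2b, Heca, Mta1, Mbd2, Ier5l and Zfp704 were each lost in at least 1 fit that left out a library, with adjusted p up to 0.155 without D542G placebo 2 for Heca, 0.131 without D542G placebo 3 for Mta1, 0.124 without D542G placebo 2 for Mbd2, 0.185 without D542G placebo 2 for Ier5l and 0.185 for Zfp704 without the same library.

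Progesterone receptor targets, some of them shared with other steroid receptors, changed in both directions. Of 20 such genes, 1 rose and 3 fell (20% called, against 2.02% of all genes tested, median -0.53). Sgk1, a kinase that regulates sodium transport, was at 618, 780 and 533 CPM in WT and 1180, 2130 and 1540 CPM in D542G (1.33 ± 0.26, adjusted p = 0.00394). Errfi1, an inhibitor of the epidermal growth factor receptor, was at 1170, 1220 and 1190 CPM in WT and at 377, 427 and 323 CPM in D542G (-1.67 ± 0.28, adjusted p = 0.000755), with a WT spread far smaller than the difference. Klf9, a zinc-finger factor, fell by 1.32 ± 0.24 on the log2 scale. Mt2, a metallothionein, fell by 1.54 ± 0.39, and its adjusted p was 0.235 without WT placebo 2, the library in which it was highest. Of 22 immediate early genes, which also report stress during dissociation, 18 had a negative change, against 52.8% of all genes tested, 8 lay below WT without overlap, against 11.8%, and 1 was called (4.55%, median -0.55). That gene was Junb, at 3200, 2980 and 3030 CPM in WT and 1700, 1750 and 1470 CPM in D542G (-0.90 ± 0.24, adjusted p = 0.041). Its call was lost whichever library was left out, with an adjusted p of up to 0.223 without D542G placebo 3. Fos was at 5260 to 5960 CPM in WT and 2280 to 3230 CPM in D542G without a call (adjusted p = 0.328).

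Genes of fatty acid metabolism and of the unfolded protein response gave 1 call each. Of 26 genes of fatty acid and triglyceride metabolism, Pparg was the only one called (3.85%, median -0.11). Of 23 genes of the unfolded protein response, 19 had a positive change, against 46.1% of all genes tested, and the only call was a fall, that of Trib3, a pseudokinase of the stress response (-1.68 ± 0.32, adjusted p = 0.00296). Hypoxia response genes split: P4ha1 and P4ha2, which hydroxylate collagen, rose by 1.35 ± 0.31 and 1.53 ± 0.41 on the log2 scale, while Vegfa and Ddit4 fell. In all, 4 of 17 were called (23.5%, against 2.02% of all genes tested, median 0.02). Without D542G placebo 3 the adjusted p of P4ha1 was 0.134 and that of P4ha2 0.456. None of 22 Wnt ligands, R-spondins and feedback genes was called, with a median of -1.13. Their mean log2 CPM was 1.31, 3.70 and 1.21 in WT and 2.32, 0.69 and 2.50 in D542G. WT placebo 2 was thus the highest library, and D542G placebo 1 and 3 lay above WT placebo 1 and 3.

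No marker of luminal progenitor and alveolar cells was called. Of 18 tested, 15 had a negative change, against 52.8% of all genes tested, and 11 lay below WT without overlap, against 11.8%. The median log2 fold change was -0.96 (-1.01 without WT placebo 2). Their sum was 4300 to 4940 CPM in WT and 2020 to 3710 CPM in D542G. Kit, a receptor tyrosine kinase of progenitor cells, was at 161 to 175 and 58.2 to 139 CPM, and Lalba, the milk protein alpha-lactalbumin, at 3.24 to 17.1 and 0.341 to 2.59 CPM. The alveolar transcription factor Elf5, in contrast, was at 7.61 to 12.2 CPM in WT and 21.1 to 23.4 CPM in D542G (1.08 ± 0.44, adjusted p = 0.293). Among keratins and mucins, Krt4 and Muc20 fell and none of 17 rose (11.8% called, against 2.02% of all genes tested). Krt4, a keratin of stratified epithelia, was at 104 to 155 CPM in WT and 17.9 to 34.1 CPM in D542G, with an adjusted p of 0.0278 and up to 0.183 without D542G placebo 3.

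No gene of G2 and M phase (30), S phase (25) or the basal and myoepithelial list (16) was called. The median of the G2 and M phase list was -0.36 with all libraries and 2.32 without WT placebo 2, where 1 of its genes was called. Top2a, a topoisomerase of dividing cells, was at 2.09, 97.8 and 3.06 CPM in WT and at 26.6, 4.79 and 62.3 CPM in D542G. Within each group the libraries high in Top2a were also high in the basal keratin Krt5, at 2.40, 281 and 4.24 CPM in WT and 53.3, 3.36 and 116 CPM in D542G. For fibroblast markers, with 12 genes tested and none called, the median was -0.74 and 10 genes had a negative change, against 52.8% of all genes tested. Their summed level went the other way, from 42.6 to 291 CPM in WT to 258 to 924 CPM in D542G, most of it from Dcn, a matrix proteoglycan, at 77.2, 269 and 22.5 CPM in WT and 240, 589 and 916 CPM in D542G. Adipocyte markers, whose part in the fall of Pparg was not tested, had no call among 6 genes, and Fabp4 was at 15.1 to 66.1 CPM in WT and 9.69 to 34.9 CPM in D542G.

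**Figure D3:**
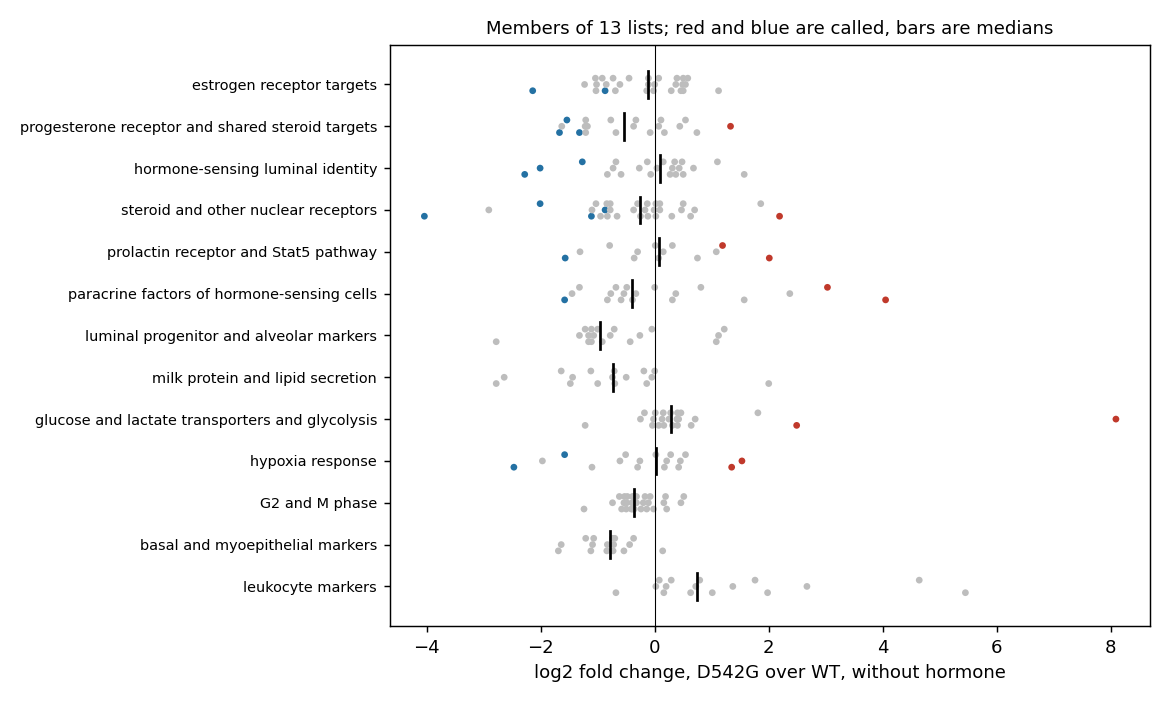
Log2 fold change of D542G over WT without hormone for each tested member of 13 gene lists, red or blue where called and grey otherwise, with a black bar at the list's median. The medians of luminal progenitor markers (-0.96), basal and myoepithelial markers (-0.78), milk protein and lipid secretion (-0.73) and leukocyte markers (0.75) lie away from 0 without any call.

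The same 2 genotypes were also compared under each hormone, in libraries that share none with the placebo groups. D542G differed from WT in 2402 genes under P4 (13.0%), in 5368 under E2 (29.1%) and in 1232 under E2+P4 (6.69%). Of the 372 genes called without hormone, 180 were called in the same direction under P4 (48.4%) and 12 in the opposite one; these 180 were 7.49% of the genes called under P4. Under E2, 218 of the 372 were called in the same direction (58.6%, and 4.06% of the genes called there) and 25 in the opposite one. Under E2+P4 the counts were 42 (11.3%, and 3.41% of those called there) and 26, and 24 of the 26 were genes higher in D542G without hormone. Median changes of the 228 higher genes were 0.81 under P4, 1.29 under E2 and -0.09 under E2+P4, and those of the 144 lower genes were -0.87, -0.88 and -0.21, against 0.03, 0.0 and 0.02 over all genes tested. The number called under P4 was 1285 without D542G P4 2. Under E2+P4 it was 510 and 513 without WT E2+P4 2 and 3, and 803, 720 and 655 without D542G E2+P4 1, 2 and 3.

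**Figure D4:**
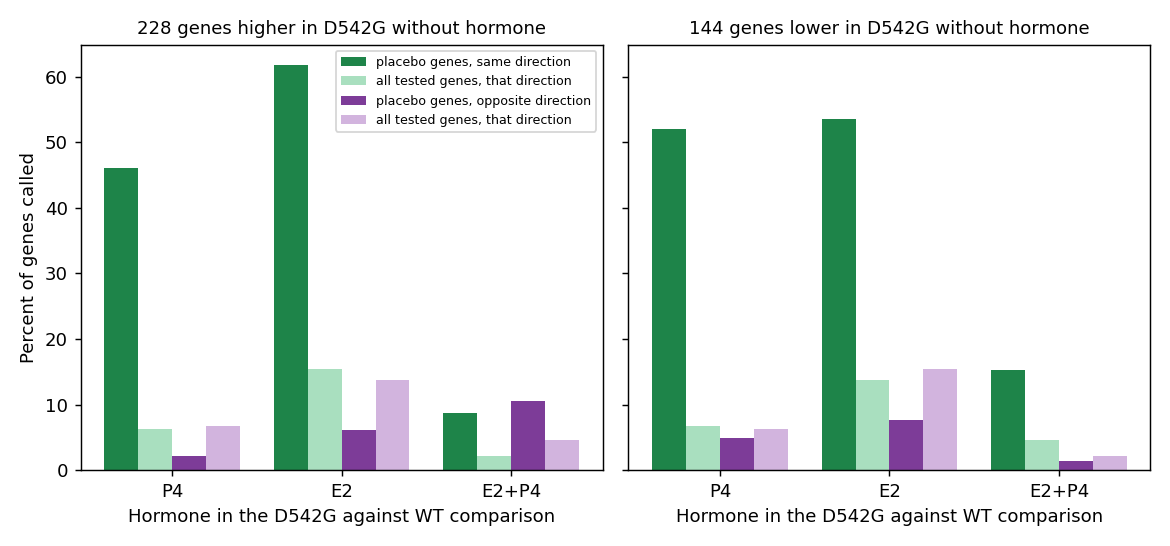
Percent of the genes called higher (left) or lower (right) in D542G without hormone that were called in the same or opposite direction in D542G against WT under P4, E2 and E2+P4, with the percent of all tested genes called in that direction beside each. Same-direction shares of the higher and lower genes are 46.1% and 52.1% under P4, against 6.24% and 6.8% of all tested genes. They are 61.8% and 53.5% under E2, against 15.4% and 13.8%. Under E2+P4 they are 8.77% and 15.3%, against 2.12% and 4.56%.

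In all 4 conditions 20 genes were called the same way, 11 higher and 9 lower. The higher ones included Slc2a3, Esrrb and Fam3c, a secreted cytokine-like protein, at mean levels of 216 CPM in WT and 795 CPM in D542G without hormone. The lower ones included Sox9, a transcription factor of epithelial progenitors, at mean levels of 3750 CPM in WT and 1800 CPM in D542G, and the GTPase effectors Cdc42ep1 and Cdc42ep4. Without hormone, the call of Sox9 was lost in at least 1 fit that left out a library.

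For some genes the sign of the difference turned with E2. Esr1 was lower in D542G than in WT under P4 (-2.35 ± 0.34) and E2+P4 (-1.48 ± 0.34) but higher under E2 (1.85 ± 0.34), where the WT level was 24.3 ± 14.8 CPM (SD, n = 3) and the D542G level 87.6 ± 14.5. Cited1 showed the same turn, with 2.05 ± 0.48 under E2, as did Tbx3, with 1.39 ± 0.31. The difference between the E2 and placebo effects was tested as an interaction, which called 1701 genes (9.23%), Esr1, Cited1 and Tbx3 among them. Pparg was at 3.01 ± 1.24 CPM in WT with E2 and 5.26 ± 4.40 in D542G with E2 (n = 3 each), so that its placebo difference had no counterpart there (0.81 ± 0.67, adjusted p = 0.396). Pgr, not called without hormone, was higher in D542G under E2 by 2.75 ± 0.39. The cathepsins differed in their pattern over the hormones. In D542G with placebo, P4, E2 and E2+P4, in that order, Ctsj was at 218 ± 40.3, 25.5 ± 17.2, 68.3 ± 8.79 and 0.067 ± 0.0199 CPM (SD, n = 3) and Ctsr at 291 ± 196, 85.3 ± 36.4, 1120 ± 198 and 1.25 ± 0.543 CPM. Both were called against WT under P4, where WT was at 2.66 ± 2.81 and 3.31 ± 3.43 CPM (SD over 4 libraries), and under E2, and neither under E2+P4.

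**Figure D5:**
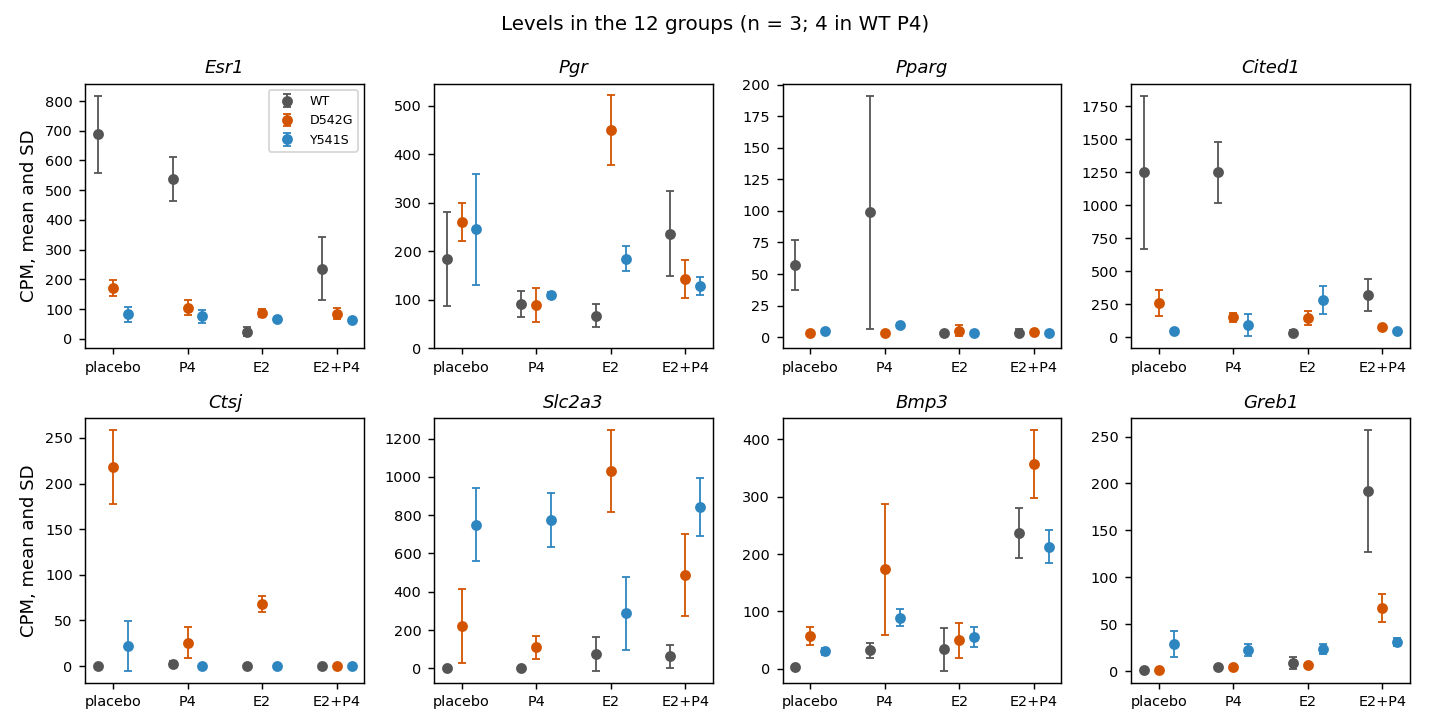
Mean CPM with SD of 8 genes in the 12 groups of genotype and hormone, grey for WT, orange for D542G and blue for Y541S, with 3 libraries per group and 4 in WT P4. Without hormone, Esr1, Pparg and Cited1 are lower in D542G than in WT, Ctsj, Slc2a3 and Bmp3 are higher, and Pgr and Greb1 are not called.

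The placebo mutant was set beside estradiol-treated wild type cells through genes that E2 changes in WT cells that also receive P4, a contrast that shares no library with the placebo comparison. It called 4274 of all genes tested (23.2%), 2220 raised (12%) and 2054 lowered (11.1%). Of the 228 genes higher in D542G placebo, 109 were raised by E2 in WT cells (47.8%) and 15 lowered (6.58%). Of the 144 lower genes, 77 were lowered by E2 (53.5%) and 10 raised (6.94%). As a share of the other list, the 109 genes were 4.91% of the 2220 raised genes, against 1.24% of all genes tested, and the 77 were 3.75% of the 2054 lowered genes, against 0.782%. These shares are limited by the number of calls in the mutant. Counted by sign alone, 63.3% of the raised and 36.8% of the lowered genes had a positive change in the mutant, against 46.1% of all genes tested. Their median log2 fold changes in the mutant were 0.10 and -0.12, against -0.03 over all genes tested. Among 505 genes raised 4-fold or more, 52 were higher in the mutant (10.3%) and 4 lower (0.792%). By sign alone, 54.3% of the 505 had a positive change in the mutant, and their median was 0.13. Among 456 genes lowered 4-fold or more, 22 were lower in the mutant (4.82%) and 4 higher (0.877%). Of the 456, 32.2% had a positive change, and their median was -0.37. Genes moved in the same direction by both included Slc2a3 (4.27 ± 0.80 with E2 in WT cells), Bmp3 (2.89 ± 0.53), Dpep2 (6.0 ± 0.49) and Pparg (-4.82 ± 0.75). Greb1 was raised by 5.50 ± 0.52 in WT cells and not called in the mutant, and Ctsj was lowered by 4.87 ± 1.38, opposite to its rise in the mutant.

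A direct comparison of D542G placebo with WT E2 called 6601 genes (35.8%). Greb1 was lower in D542G placebo by 3.37 on the log2 scale (adjusted p = 2.7e-05) and Tph1 by 4.04 (adjusted p = 4.53e-05). Esr1 was higher by 2.82 ± 0.36, lying between the WT placebo and WT E2 levels. Pparg (0.21 ± 0.67, adjusted p = 0.84) and Bmp3 (0.75 ± 0.56, adjusted p = 0.306) gave no call against WT E2. With Y541S placebo, the direct comparison called 2184 genes (11.9%). Greb1 was lower in D542G by 5.08 on the log2 scale, Tph1 by 4.52 and Krt4 by 4.61, and Ctsj, Cts6 and Cited1 were higher in D542G by 3.30 ± 1.04, 3.18 ± 1.01 and 2.50 ± 0.49. Other genes with large rises over WT gave no call against Y541S: Ctsr (1.04 ± 1.0), Slc2a3 (-1.77 ± 0.79), Aoc1 (-0.99 ± 0.80), Tmprss11a (-0.29 ± 0.67), Dpep2 (-0.90 ± 0.45) and Bmp3 (0.91 ± 0.56). The number called against Y541S was 806 without Y541S placebo 5, and 1226, 979 and 1396 without D542G placebo 1, 2 and 3.

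Promoters were searched on both strands for the palindromic estrogen response element, GGTCA and TGACC with any 3 bases between them, and for the AP-1 motif TGANTCA, in 300 bases per entry of the RefSeq table. The first was in none of 165 higher and none of 111 lower genes with an entry, and in 4 of 12672 tested genes (0.0316%). The AP-1 motif was in 18 of the higher genes (10.9%), 9 of the lower genes (8.11%) and 904 of the tested genes (7.13%). Estrogen receptor alpha is known to bind mostly at distant enhancers, which these windows do not cover.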

How the data were processed

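RNA was sequenced from sorted mammary mature luminal cells in 37 libraries of 12 groups. The authors deposited raw counts per gene, 1 table per library with 52636 genes, aligned to GRCm38 per the submitters' processing notes. The aligner, the counting tool and its strand setting are not given in the sources used here. Libraries were grouped by the genotype and treatment in their labels.

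Counts were tested with edgeR 4.0.16 in R 4.3.3 (filterByExpr by group, TMM factors, robust quasi-likelihood fit, 1 coefficient per group, all 37 libraries, 25 residual degrees of freedom), with Benjamini-Hochberg adjustment over 18426 genes. A gene was called at an adjusted p under 0.05. The standard error is the log2 fold change divided by the square root of F. CPM are counts scaled to the library total over tested genes times its TMM factor, and log2 CPM used a prior count of 2. Fitted fold changes of genes near 0 depend on this model. The code was tested on simulated data. Alternatives were RLE factors, DESeq2 1.42.0, no filter, only the groups compared, the sample number as a block, the first identifier series alone and leaving out each library. Sample numbers were not used as pairs, since no label says what they mark.

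Named genes were the 15 largest called rises and 15 largest falls above a mean log2 CPM of 2 whose groups were separate. Added to these were a panel of hormone-related, luminal and growth genes, up to 4 called members of each list and the highest marker of each cell type. Others, such as Id2, Ctsq, Krt5, Top2a, list members that were not called and the 20 genes called in all conditions, were chosen after their values were seen. The members and lists were chosen with earlier results of these data known. Promoters came from a RefSeq table on GRCm38.p6. Some results are not reported here.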

Additional observations from a re-analysis of the deposited data

Results flagged for a closer look

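For 24 of 81 genes named by the rule, the D542G to WT difference with E2 departed from that with placebo by edgeR's interaction test at an adjusted p under 0.05, which called 9.23% of all genes tested. Of the 24, 19 were called under placebo, out of 60 such genes. The interaction subtracts the same placebo estimate that chose these 19, so departures toward a smaller difference are favoured by that choice. Values are the E2 difference minus the placebo difference on the log2 scale. The fall seen without hormone was smaller, or a positive difference, with E2 for Pparg (4.85), Trex2 (5.45), Cited1 (4.32), Esr1 (3.86), Olfm1 (3.49), Ccdc85c (3.11), Ddit4 (2.74), Krt4 (2.71), Tbx3 (2.66), Trib3 (2.50), Mt2 (2.39), Klf9 (1.57) and Vegfa (1.45). The positive difference was smaller, or negative, for Slc2a3 (-4.34), Defb1 (-4.34), Bmp3 (-3.51), H2-Ab1 (-3.11) and Dpep2 (-2.91). Muc20 departed the other way (-2.83): its log2 difference was -1.5 without hormone and -4.32 with E2. The other 5 were not called under placebo: Foxa1 (2.78), Prlr (2.61), Pgr (2.25), Elf5 (-2.19) and Mbp (-0.95).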

How the results depend on the processing

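The 372 calls became 678 with DESeq2, 533 with only the groups compared and 168 to 261 when 1 library was left out. With the replicate block they were 435 in the fit of all libraries and 1 in a fit of the 2 groups alone. Correlations of deviations were -0.15, -0.5 and -0.26 for equal sample numbers and -0.28 to 0.39 for unequal ones. With 3 libraries per group they cannot decide whether the sample numbers mark pairs. The D542G effect under P4 gave 1361 calls in the first identifier series, 1536 with only the groups compared and 1285 to 2427 without 1 library. Under E2 it gave 2561 with only the groups compared. Under E2+P4 it gave 1951 with DESeq2, 127 with only the groups compared and 510 to 1820 without 1 library. Against Y541S placebo there were 1126 calls with the replicate block, 765 in the first series, 333 with only the groups compared and 806 to 2445 without 1 library. Against WT E2 there were 4171 with only the groups compared, and WT E2+P4 against WT P4 gave 2792 in the first series. The share of higher genes that E2 raised was 35.0% with only the groups compared and 51.1 to 56.9% without 1 library. The share of lower genes that E2 lowered was 39.9% with DESeq2, 43.3% in the first series and 44.1 to 55.1% without 1 library. The cause of these shifts was not tested. Over 720 refits of the 60 named called genes, leaving aside the fit of the 2 groups with the replicate block, 548 kept the call, 172 lost it and 0 reversed. Of the 60 genes, 23 kept it under all of these alternatives and 27 in every leave-one-out fit. With only the groups compared, 14 of the 60 lost it. At 37.02 to 50.06 M counts per library, genes with few counts stay imprecise.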

Other observations

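Some gene families outside the lists held genes near 0 in WT and called higher in D542G. The families were chosen after their values were seen, and such genes passed the filter on low counts through their D542G libraries, so the counts of called members are a description and not to be read against the 1.24% of all genes called higher. Their members are close copies whose reads may be divided unevenly, so single values are uncertain. Of 4 gasdermin C genes, pore-forming proteins on chromosome 15, 2 were called. Gsdmc2 had 0 counts over the WT libraries and 1245, 2398 and 939 in D542G (edgeR adjusted p = 0.00695), and Gsdmc4 had 12 and 280 counts in all (adjusted p = 0.0332). Of 7 Tmprss11 proteases on chromosome 5, 5 were tested and 3 called: beside Tmprss11a, Tmprss11e went from 15 to 1007 counts and Tmprss11f from 0 to 325. Of 15 small proline-rich genes on chromosome 3, 7 were tested and 2 called, Sprr1a and Sprr2a3, the latter with 0 WT counts and 1, 73 and 183 in D542G, and 8 had no count in the 6 libraries. Of 21 late cornified envelope genes, 3 were tested, 9 had no count in the 6 libraries and 1 was called, Lce6a, from 24 to 1032 counts (adjusted p = 0.0132). Of 4 Cd200 receptor genes, known from myeloid and mast cells, 3 were tested and 2 called, Cd200r3, from 4 to 306 counts, and Cd200r4, from 10 to 678. The calls of Gsdmc4, Tmprss11f, Lce6a and Cd200r4 were lost in at least 1 fit that left out a library.

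Copg2, a coat protein gene on chromosome 6, was also called higher, by 1.40 ± 0.34 on the log2 scale (edgeR adjusted p = 0.0237). This call was lost in at least 1 fit that left out a library. Its span (30747554 to 30896794) overlaps the end of that of Mest (30723547 to 30748465). Counts of either gene may thus belong in part to the other. D542G placebo 1 was the highest library for both, with 26227 Copg2 counts against 10484 and 9802 in D542G placebo 2 and 3.

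Slc5a5, the sodium iodide symporter, was at 477, 306 and 277 CPM in WT and 1430, 2050 and 2480 CPM in D542G (2.49 ± 0.40, edgeR adjusted p = 0.000591). It was chosen after its values were seen.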
